A study of Mus musculus with 24 samples.

Results

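The 10 genes described here are repressors and output factors of the circadian clock: Nr1d1, Nr1d2, Ciart, Per1, Per2 and Per3, which restrain the clock's activators, Dbp, Tef and Hlf, which carry its rhythm to other genes, and Npas2, an activator that serves as a counterpart of Clock. They were chosen by name, with earlier results of these data known, and every probe set annotated to a member alone was read, which gave 23 probe sets. Of these, 19 passed a filter on dim signal, and every member had at least 1 among them, so that the members are 10 of 14477 genes tested and of 18193 genes with a probe set of their own.

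Lung RNA came from 4 groups of 3 samples: IL-13 KO mice treated with HDM (KO HDM), IL-13 KO mice given PBS (KO PBS), wild-type mice treated with HDM (WT HDM) and wild-type mice given PBS (WT PBS). IL-13 KO mice lack interleukin 13, a cytokine of type 2 immunity. HDM commonly stands for house dust mite, a source of inhaled allergens, and PBS for phosphate-buffered saline, the vehicle. Dose, route, schedule, strain background, age, sex, any pooling of animals and the time of day at which lungs were taken are not stated in the labels. Since the labels do not say that samples of a group were separate animals, the p-values take in only the spread seen between these samples, which may be technical.

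The mammalian clock is a feedback loop. CLOCK or NPAS2 pairs with BMAL1 (encoded by Arntl) and binds E-box sequences, and the PER, CRY and CIART proteins and the REV-ERB receptors, products of Nr1d1 and Nr1d2, feed back to switch the activators off. DBP, TEF and HLF bind D-box sequences in output genes, where NFIL3 competes with them. The loop runs in most cells of the lung, and in mice many of these messages rise and fall by large factors over a day.

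Every lung sample was read on 1 array of each of 2 designs, named set A and set B, and the values are intensities, linear array signals scaled to the same mean of 150 on each of 24 arrays. Samples are compared here within a probe set. Different probe sets are ranked by mean signal for the filter and to choose a gene's brightest, and are added in sums of gene lists. Median intensity per array lay between 69.5 and 77.7 on set A and between 83.5 and 93.7 on set B. Il13 was dim: it had 8.71 to 15.5 in KO HDM, 3.30 to 9.46 in KO PBS, 15.5 to 29.9 in WT HDM and 4.65 to 12.1 in WT PBS. It did not pass the filter, and no label says which part was deleted, so these values are no check of genotype. A list of 8 lung epithelial genes had a summed intensity between 26730 and 45060 in every sample. The brightest genes weigh most in that sum, so it does not show that each marker was present. Skeletal muscle genes were high in 3 samples, WT HDM replicates 1 and 2 and WT PBS replicate 2. Actin signal at the 5′ end relative to the 3′ end, which drops in degraded RNA, was lowest on set A in WT PBS replicate 2 (0.409) and KO HDM replicate 1 (0.464). Results that rest on these samples are given with and without them.

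After HDM, 2 of the 10 members fell in KO lungs, Nr1d1 and Nr1d2, and 4 fell in WT lungs, Nr1d1, Nr1d2, Ciart and Tef. No member rose in either genotype. Over all 14477 genes, 5.3% were called lower and 5.65% higher in KO, and 5.14% were called lower and 5.35% higher in WT. Since the members were chosen with results known, their count set beside these shares is a description and no independent support. The test was limma on log2(intensity + pseudocount) with Benjamini-Hochberg adjustment over all probe sets, and a gene counts as called at an adjusted p under 0.05. At an unadjusted p under 0.05 the counts were 3 members in KO and 7 in WT. No share over all genes was computed at that threshold in any comparison, and the shares above are for adjusted p.

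The sign of the estimate was shared by more members than passed the test. The log2 difference was below 0 for 9 of 10 members in KO and for 9 of 10 in WT. Its median was -0.32 in KO and -0.75 in WT, where the median over all genes was 0.0074 in KO and -0.0031 in WT. The 9 in WT include Per2 at -0.01 ± 0.17, whose sign turned when 1 of some samples was left out. The 9 in KO include the activator Npas2 at -0.23 ± 0.34. The share of all genes below 0 was not computed. Every HDM sample lay below every PBS sample for 3 members in KO (Nr1d1, Ciart and Per3) and for 5 in WT (Nr1d1, Nr1d2, Ciart, Dbp and Tef). The same separation was seen in 17.2% of all genes in KO and in 14.5% in WT. In bulk tissue, fewer cells of a type and less RNA per cell cannot be told apart.

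**Figure D1:**
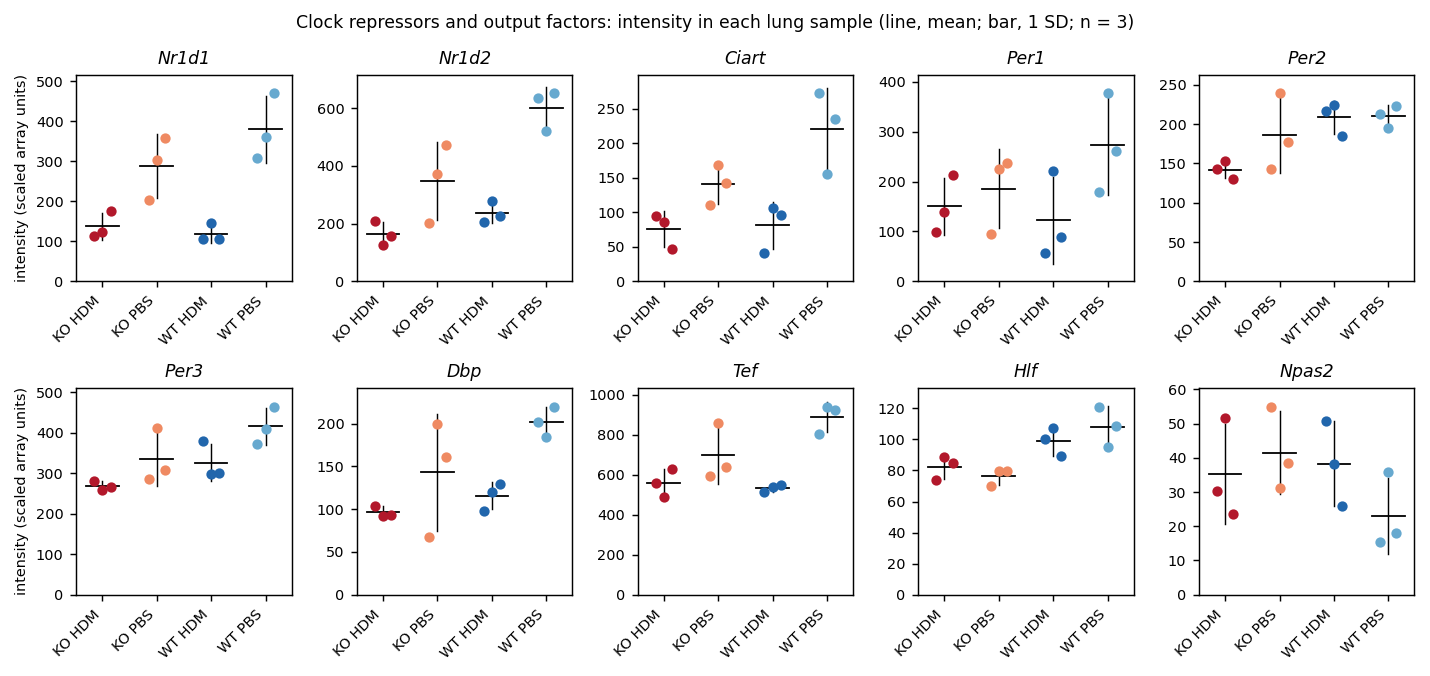
Intensity of the 10 members in each sample, 1 panel a gene, on linear axes that start at 0 and differ between panels. Points are samples, the horizontal line is the group mean and the vertical bar is 1 SD (n = 3 a group). For Nr1d1, all 6 HDM samples lie at 176 or below and all 6 PBS samples at 202 or above.

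The count in KO depended on single samples. It was 0 without KO HDM replicate 2, KO PBS replicate 2 or KO PBS replicate 3, 1 without KO HDM replicate 1 or 3, and 3 without KO PBS replicate 1, while in WT it stayed between 3 and 5 when any 1 of the 12 samples was left out. With the 3 muscle-marked samples left out, 1 WT HDM sample remains, whose spread is taken to be like that of the other groups, and the count was 1 in KO and 1 in WT.

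Nr1d1 encodes REV-ERB alpha, a nuclear receptor that represses Arntl. Its probe set, 1426464_at, read 113, 124 and 176 in KO HDM, against 202, 304 and 358 in KO PBS, and 107, 145 and 106 in WT HDM, against 308, 361 and 470 in WT PBS. All HDM samples of both genotypes lay below all PBS samples. HDM minus PBS, the log2 difference was -1.01 ± 0.24 in KO (SE, limma adjusted p = 0.021), a ratio of 0.496, and -1.61 ± 0.24 in WT (adjusted p = 0.0014), a ratio of 0.328. The call in WT held in all 23 alternative settings, and that in KO in 18 of 23. The gene lies on chromosome 11, as do Per1 and Hlf. The 250 bases before its start site are shown because they hold an E-box variant, CACGTT, read on the other strand as AACGTG and set in capitals, 28 to 23 bases before the start (RefSeq, GRCm38.p6, chr11:98775378-98775627, minus strand, printed 5′ to 3′ along the gene, as are those below).
Nr1d1: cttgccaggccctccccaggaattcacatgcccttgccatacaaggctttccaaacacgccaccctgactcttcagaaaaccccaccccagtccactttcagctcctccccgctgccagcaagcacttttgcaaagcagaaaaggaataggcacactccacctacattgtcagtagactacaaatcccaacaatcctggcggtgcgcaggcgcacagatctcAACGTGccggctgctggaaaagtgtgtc

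The sequences were searched on both strands for 6 short motifs, and a match is a description, not a binding site. They were the E-box CACGTG and its variant CACGTT, the D-box forms TTATGTAA and TTACGTAA, the element bound by ROR and REV-ERB proteins in the form TAGGTCA, and the cAMP response element TGACGTCA. The palindromes among them read alike on both strands, and no motif can lie within another. Of 32851 mouse start sites in the RefSeq table, 3.85% held CACGTT in the same 250 bases and 6.02% held CACGTG. The table held 9 of the 10 members, with 2 start sites each for Per1 and Tef, and not Per2. The 11 start sites of members included 4 with CACGTG, in Ciart, Per1 and both sites of Tef.

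Nr1d2 encodes REV-ERB beta, which acts beside REV-ERB alpha. Its brighter probe set, 1416958_at, read 208, 126 and 156 in KO HDM, against 204, 370 and 472 in KO PBS, and 207, 279 and 227 in WT HDM, against 635, 521 and 652 in WT PBS. The WT groups stood clear of each other. The KO groups overlapped, since KO PBS replicate 1 lay below KO HDM replicate 1. Nr1d2 fell in both genotypes, by a log2 difference of -1.01 ± 0.26 in KO (adjusted p = 0.034) and -1.32 ± 0.26 in WT (adjusted p = 0.0090). The call held in 16 of 23 alternatives in KO and in 22 of 23 in WT. The other probe set, 1416959_at, lay under the filter, with 8.26, 8.21 and 21.8 in KO HDM against 29.8, 46.9 and 57.1 in KO PBS, and 13.9, 16.4 and 36.4 in WT HDM against 72.6, 60.8 and 53.7 in WT PBS. It was lower in every HDM sample than in any PBS sample of its genotype. Tested without the filter, its log2 difference was -1.42 ± 0.35 in KO (adjusted p = 0.036) and -1.31 ± 0.35 in WT (adjusted p = 0.055). No motif was found before the Nr1d2 start site.

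Ciart encodes a repressor that interferes with the CLOCK and BMAL1 pair. It had 1 probe set, 1435188_at on set B, which read 95.1, 85.8 and 46.3 in KO HDM, against 111, 168 and 143 in KO PBS, and 41.4, 106 and 95.9 in WT HDM, against 272, 155 and 235 in WT PBS. Both genotypes had every HDM sample below every PBS sample, and the levels within WT HDM differed by more than a factor of 2 between replicates 1 and 2. Its log2 difference was -0.84 ± 0.33 in KO, which was not called (adjusted p = 0.15), and -1.38 ± 0.33 in WT (adjusted p = 0.024). The WT call was lost without WT HDM replicate 1 (adjusted p = 0.074), WT PBS replicate 1 (0.086) or WT PBS replicate 3 (0.073). The set B arrays of WT HDM replicate 1 and WT PBS replicate 1 have titles with an added letter a, unlike the other set B arrays. The labels do not explain it. These 2 arrays gave the lowest WT HDM value and the highest WT PBS value of Ciart, and any part of this in the difference was not tested. The sequence before its start site is shown because it holds 3 copies of the E-box CACGTG, in capitals, beginning 116, 58 and 44 bases before the start (RefSeq, GRCm38.p6, chr3:95882229-95882478, minus strand). Only 20 of the 32851 start sites, 0.0609%, held 3 or more.
Ciart: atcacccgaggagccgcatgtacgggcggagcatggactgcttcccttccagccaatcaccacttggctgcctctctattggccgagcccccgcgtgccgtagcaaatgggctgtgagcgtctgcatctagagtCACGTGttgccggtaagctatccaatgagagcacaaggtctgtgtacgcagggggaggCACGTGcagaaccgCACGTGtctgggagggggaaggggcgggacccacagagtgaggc

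The 3 Per genes encode the PERIOD proteins, which enter the nucleus with the CRY proteins and block the activators. Per1, which hormones and other signals induce quickly, was the most variable member. Its probe set, 1449851_at, read 99.7, 140 and 213 in KO HDM, against 94.1, 225 and 237 in KO PBS, and 56.1, 222 and 88.4 in WT HDM, against 179, 377 and 262 in WT PBS. The groups overlapped in both genotypes, in WT because of HDM replicate 2. Per1 was not called, with a log2 difference of -0.25 ± 0.47 in KO (adjusted p = 0.81) and -1.27 ± 0.47 in WT (adjusted p = 0.14). Without WT HDM replicate 2 the WT difference was -1.79 and was called (adjusted p = 0.035). Per1 was called in 2 of 23 alternatives in WT and in 0 of 23 in KO. Without KO HDM replicate 1 the KO difference was 0.0045. The SD within groups was 0.70 on the log2 scale, larger than in 96.9% of all genes. One of its start sites holds an E-box, in capitals, beginning 166 bases before the start (RefSeq, GRCm38.p6, chr11:69098699-69098948, plus strand), and at the other no motif was found.
Per1: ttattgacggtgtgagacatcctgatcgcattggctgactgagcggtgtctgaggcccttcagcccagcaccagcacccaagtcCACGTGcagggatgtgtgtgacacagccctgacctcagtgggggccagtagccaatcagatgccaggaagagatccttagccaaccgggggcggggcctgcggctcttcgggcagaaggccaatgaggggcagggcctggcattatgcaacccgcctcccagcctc

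Per2 was read by 3 probe sets that did not move alike. The probe set with the highest mean, 1457350_at on set B, read 144, 153 and 130 in KO HDM, against 143, 239 and 177 in KO PBS, and 216, 225 and 185 in WT HDM, against 213, 195 and 223 in WT PBS. Its groups overlapped in both genotypes, and its log2 difference was -0.34 ± 0.17 in KO (adjusted p = 0.27) and -0.01 ± 0.17 in WT (adjusted p = 0.98). A dimmer one on set A, 1417602_at, read 39.4, 41.9 and 47.3 in KO HDM, against 56.5, 60.7 and 101 in KO PBS, and 48.1, 49.5 and 58.6 in WT HDM, against 109, 84.6 and 112 in WT PBS. On that probe set every HDM sample lay below every PBS sample of its genotype. Its log2 difference was -0.64 ± 0.23 in KO (adjusted p = 0.11) and -0.87 ± 0.23 in WT, which was called (adjusted p = 0.034). The remaining probe set, 1417603_at, lay under the filter, and without the filter its log2 difference was -0.28 in KO (adjusted p = 0.63) and -0.83 in WT (adjusted p = 0.10). Whether Per2 fell after HDM therefore depended on the probe set.

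Per3 had 6 probe sets, 5 of them tested. The one with the highest mean, 1441445_at, read 281, 259 and 265 in KO HDM, against 285, 412 and 308 in KO PBS, and 379, 298 and 302 in WT HDM, against 373, 410 and 465 in WT PBS. The KO groups did not overlap and the WT groups did, by 1 sample. On this probe set the log2 difference was -0.29 ± 0.15 in KO (adjusted p = 0.29) and -0.34 ± 0.15 in WT (adjusted p = 0.23), neither of them called. Another set B probe set, 1458176_at, read 157, 134 and 194 in KO HDM, against 368, 372 and 522 in KO PBS, and 321, 248 and 312 in WT HDM, against 641, 204 and 521 in WT PBS. It fell in KO, with a log2 difference of -1.32 ± 0.33 (adjusted p = 0.026), and was not called in WT (-0.47 ± 0.33, adjusted p = 0.48), where PBS replicate 2 lay below every HDM sample. The difference between those effects was -0.84 (adjusted p = 0.90). On the other tested Per3 probe sets the log2 differences were -0.40 in KO and -0.59 in WT for 1421087_at, 0.14 and 0.32 for 1460662_at, and -0.01 and -0.05 for 1442243_at, and none was called. The remaining probe set, 1421086_at, lay under the filter. Without the filter its log2 difference was above 0 in both genotypes, at 0.61 in KO (adjusted p = 0.57) and 0.17 in WT (adjusted p = 0.93). The sequence before the Per3 start site is shown because it holds the D-box TTATGTAA, in capitals, beginning 205 and 158 bases before the start (RefSeq, GRCm38.p6, chr4:151044666-151044915, minus strand). The D-box was found at 0.819% of all start sites, and 6 of them, 0.0183%, held it 2 or more times.
Per3: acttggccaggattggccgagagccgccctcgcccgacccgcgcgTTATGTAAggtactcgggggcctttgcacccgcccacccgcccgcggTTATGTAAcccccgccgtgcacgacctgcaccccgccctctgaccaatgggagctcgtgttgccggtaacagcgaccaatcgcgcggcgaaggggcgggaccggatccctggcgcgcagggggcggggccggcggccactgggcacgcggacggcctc

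Dbp, Tef and Hlf encode the PAR bZIP factors, activators of D-box genes. Dbp is itself a direct target of CLOCK and BMAL1 with a large daily swing in mouse tissues. Its probe set 1418174_at read 104, 91.9 and 93.5 in KO HDM, against 67.6, 200 and 162 in KO PBS, and 98.4, 120 and 129 in WT HDM, against 202, 185 and 220 in WT PBS. The WT groups did not overlap, whereas KO PBS replicate 1 had the lowest value of all 12 samples. For Dbp the log2 difference was -0.41 ± 0.30 in KO (adjusted p = 0.46) and -0.77 ± 0.30 in WT (adjusted p = 0.15). Without KO PBS replicate 1, both were called, with -0.85 in KO (adjusted p = 0.021) and -0.77 in WT (adjusted p = 0.015). The WT estimate did not change, since that sample enters it only through the shared spread. Dbp was called in 1 of 23 alternatives in KO and in 1 of 23 in WT. The other probe set, 1438211_s_at, read 52.4 to 169 in KO PBS and had KO PBS replicate 1 lowest again, with log2 differences of -0.61 ± 0.34 in KO (adjusted p = 0.31) and -1.15 ± 0.34 in WT (adjusted p = 0.060). No motif was found in the 250 bases before the Dbp start site.

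Tef fell in WT. Its brightest probe set, 1424175_at, read 560, 491 and 631 in KO HDM, against 593, 861 and 641 in KO PBS, and 514, 540 and 548 in WT HDM, against 803, 941 and 925 in WT PBS. WT HDM samples were close together and far below WT PBS, and in KO the groups overlapped, with KO PBS replicate 1 below KO HDM replicate 3. The log2 difference was -0.30 ± 0.14 in KO (adjusted p = 0.24) and -0.73 ± 0.14 in WT (adjusted p = 0.0083). A dim probe set, 1450184_s_at, read 18.8, 43.2 and 15.2 in KO HDM, against 81.9, 99.8 and 139 in KO PBS, and 63.0, 23.4 and 53.5 in WT HDM, against 111, 79.1 and 163 in WT PBS. Here the KO difference was the one called, at -1.86 ± 0.39 (adjusted p = 0.011), and WT had -1.25 ± 0.39 (adjusted p = 0.076). The third, 1438033_at, had -0.19 in KO and -0.09 in WT and was not called. With the mean of all tested probe sets in place of the brightest, Tef was called in KO (-0.79, adjusted p = 0.042) and not in WT (-0.69, adjusted p = 0.080). Both Tef start sites hold 1 E-box, in capitals, beginning 127 and 138 bases before the start (RefSeq, GRCm38.p6, plus strand, chr15:81802423-81802672 for the first and chr15:81811164-81811413 for the second).
Tef, first start site: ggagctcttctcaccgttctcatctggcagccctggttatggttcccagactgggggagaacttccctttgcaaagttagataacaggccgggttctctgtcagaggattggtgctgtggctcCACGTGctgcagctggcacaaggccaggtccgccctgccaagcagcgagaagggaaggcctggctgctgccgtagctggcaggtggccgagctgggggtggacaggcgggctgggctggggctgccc
Tef, second start site: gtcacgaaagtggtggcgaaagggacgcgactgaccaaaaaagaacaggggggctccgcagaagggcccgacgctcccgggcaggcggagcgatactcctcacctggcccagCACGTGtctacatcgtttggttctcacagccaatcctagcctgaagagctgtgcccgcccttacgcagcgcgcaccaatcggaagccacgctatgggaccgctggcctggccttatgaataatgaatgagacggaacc

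Hlf was the least changed of the 3. Its probe set 1434735_at read 73.7, 88.9 and 84.6 in KO HDM, against 70.0, 79.5 and 79.3 in KO PBS, and 100, 108 and 89.1 in WT HDM, against 121, 95.3 and 109 in WT PBS. The groups overlapped in both genotypes. The log2 difference was 0.10 ± 0.17 in KO (95% interval -0.26 to 0.46) and -0.12 ± 0.17 in WT (95% interval -0.48 to 0.24). The second probe set had 0.46 ± 0.26 in KO (adjusted p = 0.32) and -0.18 ± 0.26 in WT (adjusted p = 0.78). The only motif before its start site was TGACGTCA, which was found at 1.55% of all start sites.

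Npas2, the activator among the members, was dim and did not share the direction in WT. Its tested probe set, 1421037_at, read 30.4, 51.6 and 23.6 in KO HDM, against 55.0, 31.2 and 38.4 in KO PBS, and 50.8, 38.1 and 26.0 in WT HDM, against 15.4, 35.9 and 17.9 in WT PBS. All 4 groups overlapped. The log2 difference was -0.23 ± 0.34 in KO (adjusted p = 0.75) and 0.61 ± 0.34 in WT (adjusted p = 0.35). The other probe set, 1421036_at, lay under the filter, and without the filter it had -0.44 in KO (adjusted p = 0.52) and 0.60 in WT (adjusted p = 0.40).

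**Figure D2:**
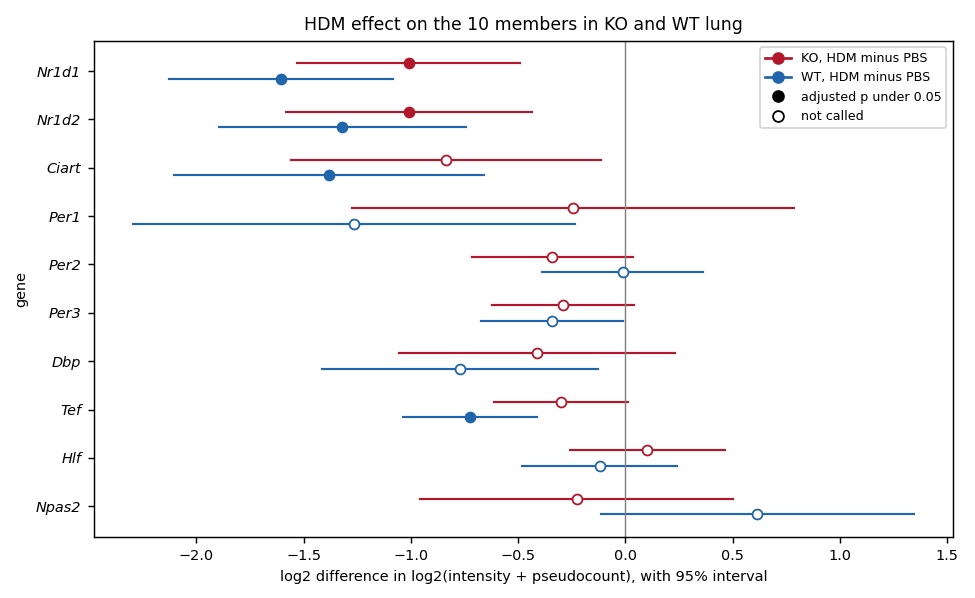
Log2 difference of HDM minus PBS for each member, with its 95% interval, in KO (red) and WT (blue) samples, 3 against 3 each. Filled points passed an adjusted p under 0.05. Nr1d1 and Nr1d2 are filled in both genotypes, Ciart and Tef in WT alone, and the intervals of KO and WT overlap for every gene.

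Over all tested probe sets of the members, 4 of 19 were called lower in KO and 5 of 19 in WT, and none was called higher. Over all 31496 probe sets the shares called lower were 4.31% in KO and 3.85% in WT. The probe sets of a gene share its RNA and are not separate observations.

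**Figure D3:**
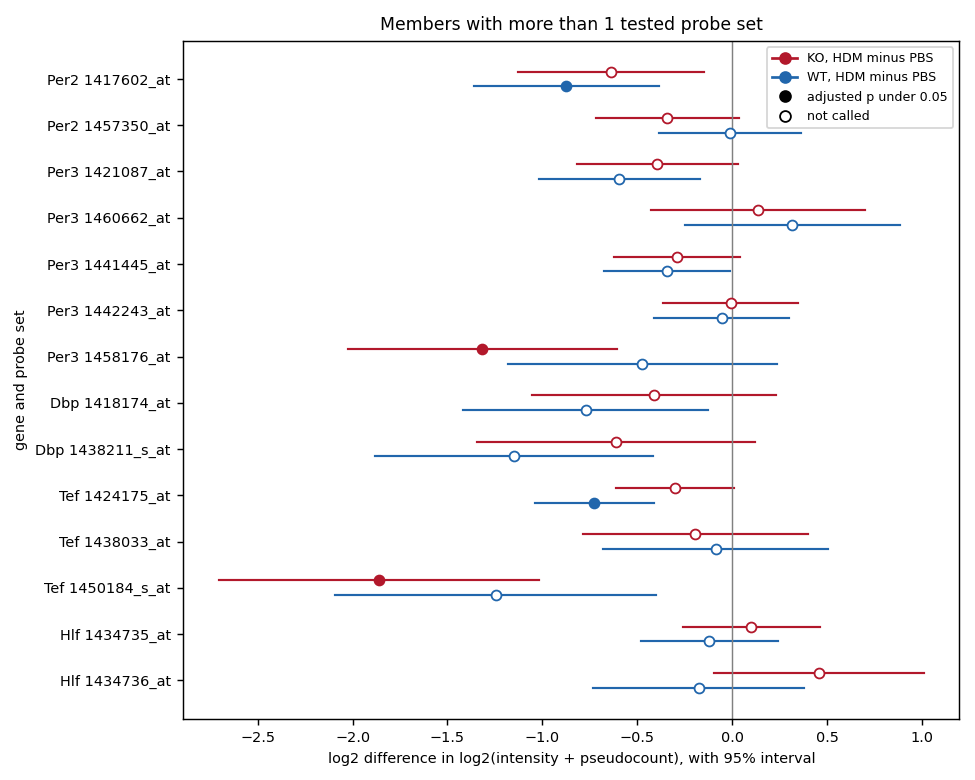
Log2 difference of HDM minus PBS with its 95% interval for each tested probe set of the 5 members that have more than 1, in KO (red) and WT (blue), filled where the adjusted p was under 0.05. In WT the Per2 probe sets lie at -0.01 and -0.87, and in KO the Per3 probe sets run from 0.14 to -1.32 and those of Tef from -0.19 to -1.86.

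The difference between the HDM effects in KO and WT was not called for any member. Its estimate, the KO difference minus the WT difference, was above 0 for 8 of 10 members, with a median of 0.34, and was below 0 for Per2 (-0.33) and Npas2 (-0.84). The smallest adjusted p was 0.88, for Tef (0.42 ± 0.20), and no member had an unadjusted p under 0.05. Over all genes 0.159% were called. For Nr1d1 the estimate was 0.60 with a 95% interval of -0.14 to 1.33, and for Nr1d2 it was 0.31 with -0.50 to 1.12. These intervals hold both equal effects and effects that differ by a factor of 2. Without KO PBS replicate 1 the estimates of Nr1d2, Per3 and Dbp were -0.03, -0.05 and -0.08.

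KO against WT was not called for any member after PBS or after HDM. After PBS 9 of 10 members were lower in KO, with a median log2 difference of -0.44, the largest being Nr1d2 at -0.85 ± 0.26 (adjusted p = 0.55). Without KO PBS replicate 1 it was -0.51 for Nr1d2, -0.18 for Nr1d1 (-0.41 with it) and -0.16 for Dbp (-0.60 with it). Every KO PBS sample lay below every WT PBS sample for 2 members, Nr1d2 and Hlf. After HDM, every KO sample lay below every WT sample for 3 members, Per2, Per3 and Hlf. Hlf read 70.0 to 88.9 over all KO samples and 89.1 to 121 over all WT samples, while its second probe set overlapped in both comparisons. The share of all genes with such a separation was not computed, so these counts are descriptions without a background. Over all genes 0.0207% were called in KO against WT after PBS. An unadjusted p under 0.05 after PBS, for which no share over all genes was computed, was seen for 3 members. After HDM the median was -0.18, and the smallest adjusted p was 0.37, for Per2 (-0.52 ± 0.17), the single member with an unadjusted p under 0.05. Per2 read 130 to 153 in KO HDM and 185 to 225 in WT HDM on its brightest probe set. Over all genes 0.67% were called. The comparisons after PBS and those of HDM against PBS share the PBS samples, so a low KO PBS sample enters both.

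Among the samples, KO PBS replicate 1 stood apart in the members. It had the lowest value of its group for 9 of the 9 members other than Npas2, and the highest for Npas2. Its mean log2 deviation from the group mean over the 9 was -0.44, while that of the other 11 samples lay between -0.20 and 0.28. Over all genes it was the lowest of its group in 30.6% and the highest in 33.4%. The sample also stood apart in cardiac muscle markers, with a summed intensity of 3773, against 2227 and 2026 in KO PBS replicates 2 and 3. Its actin ratio was the highest of the 6 KO samples, at 0.854 on set A, where the others had 0.464 to 0.797, and at 0.897 on set B, where they had 0.428 to 0.754. The part of these in the members' low values was not tested.

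**Figure D4:**
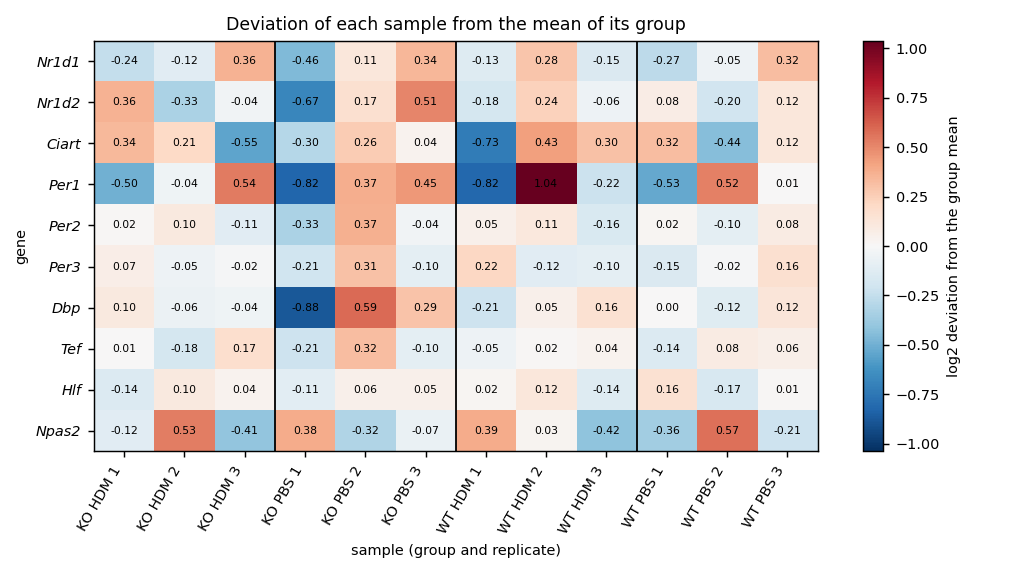
Log2 deviation of each sample (columns, 3 a group) from its group mean for each member (rows), blue below and red above, with the value printed. KO PBS replicate 1 is below its group mean for every gene but Npas2, by 0.11 (Hlf) to 0.88 (Dbp).

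Within groups, some members moved together. Over the 12 samples, after subtraction of group means, the highest values of Pearson's r were 0.80 between Nr1d1 and Per1, 0.80 between Nr1d2 and Dbp, 0.74 between Per2 and Dbp, and 0.70 between Per2 and Per3. Some other pairs did not move together, with 0.02 between Nr1d1 and Ciart and, lowest of the pairs without Npas2, -0.15 between Ciart and Per3. Npas2 had r below 0 with each of the other 9 members, from -0.57 with Dbp to -0.10 with Per3. These values describe 12 points that share arrays, and KO PBS replicate 1 enters each of them. The median SD within groups was 0.35 for the members and 0.23 for all genes, on the log2 scale. Hlf was steady, with an SD larger than in 11.1% of genes.

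The other clock components were seldom called. Of 24 listed, 22 were tested, of which 1 was called lower and 0 higher in KO, and 0 lower and 2 higher in WT, with a median log2 difference of -0.04 in KO and -0.18 in WT. Nfil3, the D-box repressor that opposes Dbp, Tef and Hlf, read 69.0, 56.3 and 74.2 in KO HDM, against 51.8, 37.0 and 38.3 in KO PBS, and 68.0, 72.4 and 72.0 in WT HDM, against 40.8, 38.1 and 25.0 in WT PBS. Every HDM sample was above every PBS sample, and the log2 difference was 0.58 ± 0.21 in KO (adjusted p = 0.13) and 0.92 ± 0.21 in WT (adjusted p = 0.021). Bhlhe40, which encodes DEC1, an E-box repressor, averaged 304 ± 40 in KO HDM and 186 ± 27 in KO PBS, and 509 ± 145 in WT HDM and 212 ± 35 in WT PBS (SD, n = 3 each). Its log2 difference was 0.68 ± 0.21 in KO (adjusted p = 0.065) and 1.21 ± 0.21 in WT (adjusted p = 0.0038). Sirt1, a deacetylase that acts on clock proteins, was called lower in KO (-0.82 ± 0.21, adjusted p = 0.030) and had -0.68 ± 0.21 in WT (adjusted p = 0.069).

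Of the other direct partners of the members, Arntl, Clock, Cry1 and Cry2 were not called. Arntl, which encodes BMAL1 and is repressed by the REV-ERB receptors, averaged 194 ± 33 in KO HDM and 268 ± 41 in KO PBS, and 230 ± 26 in WT HDM and 203 ± 25 in WT PBS. Its log2 difference was -0.45 ± 0.16 in KO (adjusted p = 0.12) and 0.17 ± 0.16 in WT (adjusted p = 0.64), and on another probe set, 1425099_a_at, it was 0.08 and -0.03. Clock, its partner, had 0.59 in KO (adjusted p = 0.28) and -0.16 in WT (adjusted p = 0.84) on its brightest probe set. Its other probe sets differed in sign in KO, with 0.46, -0.35 and -0.30 in KO and -0.38, -0.27 and -0.35 in WT for 1439314_at, 1418659_at and 1418660_at, none of them called. Cry1 had -0.36 (adjusted p = 0.71) and -0.66 (adjusted p = 0.49). Cry2 had a log2 difference of -1.34 ± 0.50 in KO and -1.36 ± 0.50 in WT, with an adjusted p of 0.13 in each. Its HDM samples ranged from 19.4 to 72.6 in KO and from 10.3 to 81.8 in WT, all below the PBS samples of their genotype.

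Among genes known to follow the clock in other tissues, 15 of 16 listed were tested, of which 1 was called in each genotype. Pnp, purine nucleoside phosphorylase, was called higher in KO (0.52 ± 0.10, adjusted p = 0.0080), and Tsc22d3, which encodes the glucocorticoid-induced protein GILZ, was called lower in WT (-0.93 ± 0.23, adjusted p = 0.026). The median log2 differences were 0.04 in KO and -0.09 in WT. Their summed intensity was 3504 to 3736 in KO HDM and 3346 to 3410 in KO PBS, and 3250 to 3781 in WT HDM and 3914 to 4381 in WT PBS. The sums of HDM and PBS samples did not overlap in either genotype, and lay higher after HDM in KO and lower in WT. Bright genes weigh most in such sums, which therefore do not describe the 15 genes as a set. Pnp alone read 733, 739 and 776 in KO HDM, against 514, 489 and 565 in KO PBS. Tsc22d3 alone read 603, 676 and 308 in WT HDM, against 896.5, 1058 and 935 in WT PBS.

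Glucocorticoids, adrenal hormones with a daily rhythm, induce Per1 among many other genes. A list of 14 genes, called glucocorticoid-responsive here, was read beside the members. It includes Nr3c1, the gene of the glucocorticoid receptor, and Hsd11b1, that of an enzyme which acts on the hormones, so not all 14 are induced targets. Both read lower in every HDM sample than in any PBS sample of the same genotype, and both enter the counts and medians. In KO 4 were called lower and 2 higher, and in WT 7 were called lower and 1 higher, with medians of -0.42 in KO and -0.73 in WT. Klf15, a transcription factor of amino acid and glucose metabolism, averaged 52.2 ± 15.9 in KO HDM and 145 ± 25 in KO PBS, and 38.8 ± 14.3 in WT HDM and 194 ± 39 in WT PBS. Its log2 difference was -1.38 ± 0.26 in KO (adjusted p = 0.0063) and -2.16 ± 0.26 in WT (adjusted p = 0.00035). Klf9, a glucocorticoid-induced repressor, fell by 0.98 in KO and 0.79 in WT on the log2 scale, Dusp1, a MAP kinase phosphatase, by 0.95 and 1.17, and Errfi1, an inhibitor of the EGF receptor, by 0.63 and 1.03. The metallothionein gene Mt2 moved the other way, at 1.38 in KO (adjusted p = 6.9e-05) and 0.75 in WT (adjusted p = 0.0042), and Mt1 had 0.91 in KO. The difference between genotypes was called for none of the 14. Tsc22d3 is in both lists.

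**Figure D5:**
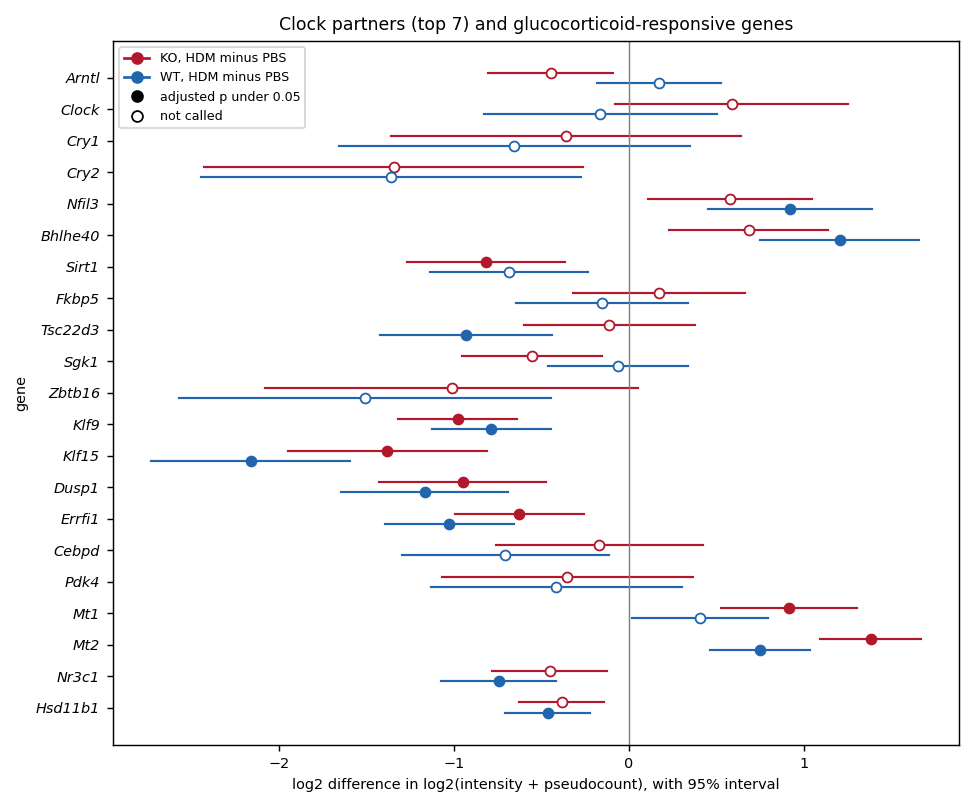
Log2 difference of HDM minus PBS with its 95% interval in KO (red) and WT (blue) for 7 clock genes that are not members (top) and the 14 glucocorticoid-responsive genes, filled where the adjusted p was under 0.05. Nfil3 and Bhlhe40 lie above 0 in both genotypes, and Klf15 lies lowest in both.

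Markers of several cell types differed between treatments as well. Of 6 leukocyte markers, 5 were called higher in KO and 5 in WT, with summed intensities of 4854 to 5269 in KO HDM, 2416 to 2845 in KO PBS, 4653 to 5739 in WT HDM and 2183 to 2397 in WT PBS. Of 6 endothelial markers, 5 were called lower in KO and 6 in WT, with sums of 4318 to 4545 in KO HDM, 6623 to 7471 in KO PBS, 3936 to 4621 in WT HDM and 6796 to 7605 in WT PBS. Of 6 cardiac muscle markers, 5 were called lower in KO and 3 in WT, with sums of 1107 to 1444 in KO HDM, 2026 to 3773 in KO PBS, 1266 to 1683 in WT HDM and 2265 to 2725 in WT PBS. None of these markers was at 0 in any sample, but neither was any other probe set, so this is no sign that a cell type was present. These lists moved with treatment in the same samples as the members, and their part in the members' differences was not tested.

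Other marker lists moved less or differently. Smooth muscle markers were called lower for 2 of 5 in KO and higher for 4 of 5 in WT. Lung epithelial markers were called lower for 1 of 8 in KO and 2 of 8 in WT. None of 6 tested skeletal muscle markers and none of 2 tested adipose markers was called. Skeletal muscle sums were 418 to 610 in KO HDM, 315 to 649 in KO PBS, 534 to 4867 in WT HDM and 502 to 2735 in WT PBS. Without the muscle-marked samples the differences in WT were of similar size, at -1.78 for Nr1d1 (adjusted p = 0.039), -1.48 for Nr1d2 (0.10), -1.30 for Ciart (0.11) and -0.65 for Tef (0.20). Without the 2 samples with the lowest actin ratio, Nr1d1 was -0.89 in KO (adjusted p = 0.096) and -1.63 in WT (adjusted p = 0.0092), and Nr1d2 was -1.19 in KO (adjusted p = 0.039) and -1.42 in WT (adjusted p = 0.021).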

How the data were processed

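Lung RNA of 12 samples was measured on 24 arrays, a set A and a set B array for each, paired by their titles. The deposited values are linear intensities, 1 per probe set and array, which the authors had scaled so that the mean, after trimming 2% from each end, is 150 on every array. How the signals were summarised is not given in the sources used here, and detection calls were not used. The scaling was kept. Intensities were turned into log2(value + pseudocount). The pseudocount was the 10th percentile of a set's values, which is 7 (set A) or 11 (set B). Control probe sets were left out, the 100 probe sets that the designs share were taken from set A, and probe sets with a mean in the lowest 30% of their set were dropped (those below 32.0 for set A, 39.2 for set B). The scale understates changes of dim genes.

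Tests used limma 3.58.1 in R 4.3.3, with 1 model of 4 groups, 8 residual degrees of freedom and eBayes moderation with a trend on intensity. P-values were adjusted by Benjamini-Hochberg, separately for each of 5 comparisons, over every tested probe set. The steps were tested on simulated data. Replicates on the same set and group had Spearman correlations of at least 0.962 (set A) and 0.887 (set B), and no 2 arrays were identical. Probe sets were named by the platform annotation, and all 10 members matched the RefSeq gene table. The number of arrays limits the precision.

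The members and lists were chosen with earlier results of these data known. The naming rule covered all probe sets of the members, each member being stood for by its brightest tested probe set, up to 4 called genes of each list or the 2 with the smallest p, 5 partner genes, and the genes most like the members. Cell type markers are given as counts and sums. Alternatives were quantile normalization, other pseudocounts and filters, another spread model, a replicate block, the mean of a gene's probe sets, and leaving out samples.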

Additional observations from a re-analysis of the deposited data

How the results depend on the processing

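The number of members called for the HDM effect in KO, 2, was 0 to 3 when 1 sample was left out, and 1 when only the compared groups entered the fit, with the replicate block, without the 3 samples high in skeletal muscle markers and without the 2 samples with the lowest actin ratio. For the HDM effect in WT the number, 4, was 3 to 5 when 1 sample was left out and 1 without those 3 samples. In the other 3 comparisons it was 0 under every alternative run. The labels do not say whether replicate numbers pair the samples. Same-numbered samples of different groups had correlations of deviations from -0.09 to 0.17 (18 pairs), and differently numbered ones from -0.20 to 0.115 (36 pairs). These overlapping ranges do not settle whether samples were paired. With the replicate block Per1 was called in WT (-1.27, adjusted p = 0.028), and Nr1d2 in KO was not (-1.01, adjusted p = 0.052). Ciart in WT was not called with the compared groups alone (adjusted p = 0.068), nor Tef without the lowest actin ratios (0.053). The sign turned for some small differences. With the mean of all probe sets the difference between genotypes was -0.15 for Per3 and -0.10 for Tef, and KO against WT after HDM was -0.28 for Tef. Without the lowest actin ratios Per1 in KO was 0.0045. When 1 sample was left out, Per1 in KO ranged from -0.66 to 0.0045, Per2 in WT from -0.067 to 0.068, the difference between genotypes from -0.026 to 0.56 for Nr1d2, -0.053 to 0.20 for Per3 and -0.080 to 0.66 for Dbp, and KO against WT after HDM from -0.41 to 0.22 for Ciart, -0.025 to 0.15 for Tef and -0.33 to 0.085 for Npas2. The causes were not tested. Npas2 lay under the filter in some of these settings, which then gave no value for it. With 3 samples a group, adjusted p-values near the threshold moved across it when 1 sample was removed.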

Other observations

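The genes whose pattern over the 12 samples was most like the members' are given as a description. The pattern was the mean of the standardized log2 values of the 9 members other than Npas2, and 14467 other genes were compared. The highest Pearson correlations were those of Srsf10, a splicing regulator (0.94), Ints8, a subunit of the Integrator complex (0.93), Errfi1 (0.93), S1pr1, a sphingosine-1-phosphate receptor (0.92), 2610005L07Rik (0.92) and Crebrf (0.91). The lowest were those of Rrad, a small GTPase (-0.95), Timm10b, a mitochondrial import protein (-0.94), Gm13889 (-0.94) and Fgr, a myeloid tyrosine kinase (-0.93). Likeness did not require an HDM call: Srsf10 had a log2 difference of -0.34 in KO (adjusted p = 0.23) and -0.38 in WT (adjusted p = 0.21), and Rrad 0.53 in KO (0.21) and 0.57 in WT (0.19). After subtraction of group means, the correlation was 0.88 for Srsf10 and -0.85 for Rrad. Errfi1, also on the glucocorticoid list, was called lower in both genotypes, at -0.63 in KO (adjusted p = 0.039) and -1.03 in WT (adjusted p = 0.0027).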
